A study of Mus musculus with 6 samples.

Results

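The EGR and NR4A genes, with Ier2 and Ier3, are genes that a cell switches on within minutes of a signal at its surface. They were examined in mouse acute lymphoblastic leukaemia driven by BCR-ABL1, the fusion kinase of Philadelphia chromosome-positive disease. The members are Egr1, Egr2, Egr3, Nr4a1, Nr4a2, Nr4a3, Ier2 and Ier3, and every probe set annotated to exactly 1 of these symbols was taken. This gave 17 probe sets for 8 genes, among 45037 probe sets and 18193 genes in all. A probe set is a group of short oligonucleotides that reads 1 transcript or a few.

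Balb/c leukaemia cells of 2 genotypes were compared, with 3 arrays of AID-/- and 3 of AID+/+ leukaemia. AID edits immunoglobulin genes in activated B cells, and the series asked how expression differs between leukaemia with and without it. Values are log2 expression, so a difference of 1 is a 2-fold change, and differences are given as AID-/- minus AID+/+. The titles call the arrays biological replicates, and the labels do not say whether each leukaemia came from its own animal, so p-values cover no more than the variation among these 6 arrays, which may be technical. In such bulk samples, fewer cells of a type and less RNA per cell cannot be told apart.

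Signals through the antigen receptor, growth factor receptors and kinases such as BCR-ABL1 reach these genes by several routes. The RAS-ERK route acts through serum response factor and its ETS partners, and calcium and cAMP act through CREB and MEF2 factors. The products are mostly transcription factors: the EGR proteins are zinc finger activators, and the NR4A proteins are orphan nuclear receptors whose activity follows their amount. In B and T lymphocytes, Egr1 and Nr4a1 are commonly used as readouts of antigen receptor signalling.

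As facts of all arrays, the array medians lay between 4.85 and 4.90, and Pearson's r across probe sets was 0.991 to 0.994 within AID-/-, 0.995 to 0.996 within AID+/+ and 0.972 to 0.977 between the groups. Xist, the RNA of the inactive X chromosome, was at 11.93 to 12.18 in the AID+/+ arrays and at 4.35 to 6.02 in the AID-/- arrays, so the genotype comparison is also one of sex, and the effects cannot be told apart. Of 11 measured B-lineage precursor markers, 10 lay above the median probe set on every array. The summed linear level of these 11 markers was 38650 to 44440 in AID-/- and 32140 to 35480 in AID+/+ leukaemia. Of them, Blnk, Rag1, Rag2 and Dntt were higher at an adjusted p under 0.05, by 2.09, 3.74, 2.78 and 5.60. The others did not pass, among them Pax5 and Igll1 with differences of -0.37 and -0.19. Marker sums also separated the groups for macrophages and monocytes (8 of 8 markers measured, 189.0 to 212.5 in AID-/- and 168.0 to 185.7 in AID+/+) and for NK cells (3 of 4 measured, 33.61 to 38.17 and 46.32 to 57.61). Of the macrophage markers, Cd14, Adgre1, C1qa, C1qb and Cd68 stayed below the median probe set on every array, and so did all 3 NK markers. Csf1r and Lyz2 lay above it on every array. Lyz2, a lysozyme of myeloid cells, was higher by 0.76 (adjusted p = 0.0436), and Itgam differed by 1.06 without overlap and without passing (adjusted p = 0.139). Csf1r and Adgre1 went the other way. They were lower by 0.30 and 0.43 without overlap and without passing (adjusted p = 0.0685 and 0.0797). Cd14 differed by -0.20 with overlap. Of the 3 NK markers, Klrd1 was lower by 0.87 (adjusted p = 0.00532) and the others did not pass. Of 7 T cell markers, Cd28, also below the median probe set on every array, was lower by 0.77 (adjusted p = 0.0296). The other T cell markers did not pass, and the T cell marker sums overlapped. The 3' to 5' difference of the Actb control was 0.37 to 0.45 in AID-/- and 0.25 to 0.55 in AID+/+ arrays, with overlapping groups. The part of other cell types in the results was not tested.

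The NR4A and EGR probe sets were lower in AID-/- leukaemia wherever limma, a linear model fitted over all probe sets, called a difference. Of the 17 probe sets, 6 were lower at an adjusted p under 0.05, from Nr4a2 (4 probe sets), Nr4a1 and Egr3, and 11 did not pass. Over all probe sets, 14.6% were called, 7.39% as lower and 7.24% as higher. No member was called higher by limma. At an unadjusted p under 0.05 in limma, 10 were lower and 0 higher. An ordinary linear model at an adjusted p under 0.05 called 3 as lower and 0 as higher. Shares of all probe sets by these other criteria are not given here, and the 14.6%, 7.39% and 7.24% do not apply to those counts. The groups did not overlap at 11 probe sets, all lower in AID-/-, against 32.9% of all probe sets without overlap, or 18.7% counting the lower ones. The median difference of the members was -0.47, and that of all probe sets was -0.04. Probe sets of 1 gene read the same transcripts, so the 6 called probe sets stand for 3 genes. With 1 array left out, 5 to 8 probe sets were lower.

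**Figure D1:**
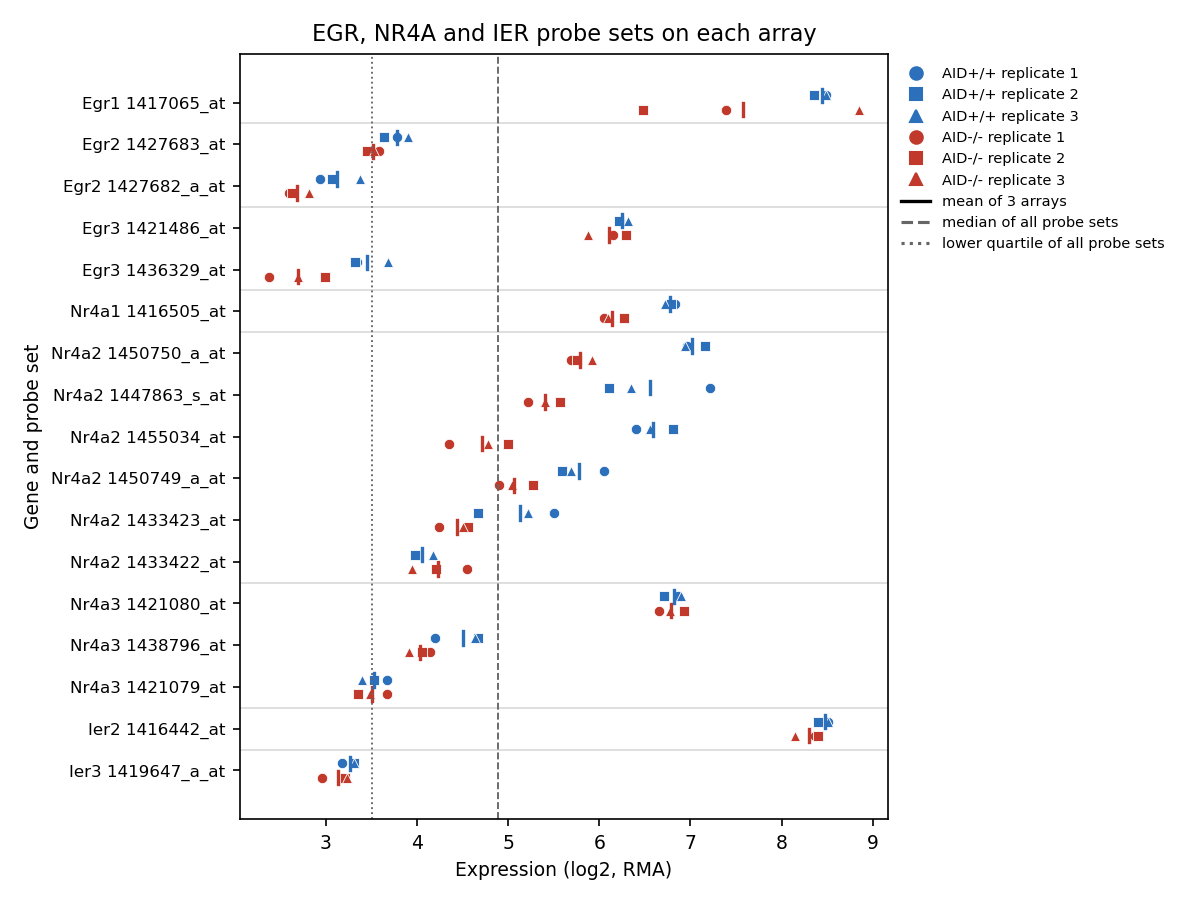
Expression on the log2 scale (x axis) of the 17 probe sets (y axis), with 1 point per array, circles, squares and triangles for replicates 1, 2 and 3, and short vertical bars for the mean of 3 arrays. The AID-/- points of Nr4a1 and of 5 of the 6 Nr4a2 probe sets lie to the left of all AID+/+ points, and the AID-/- points of Egr1 spread from 6.48 to 8.84 around the AID+/+ points.

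Nr4a2 encodes NURR1, best known from dopaminergic neurons and also induced by antigen receptor signals in lymphocytes. With all 6 arrays and each gene at its brightest probe set, it showed the largest decrease of the 8 genes. At its brightest probe set, 1450750_a_at, it was at 5.69, 5.76 and 5.92 in AID-/- replicates 1, 2 and 3 and at 6.97, 7.16 and 6.94 in the AID+/+ replicates. The groups did not overlap, and arrays within a group differed by at most 0.23. The decrease was 1.23 (SE 0.11, adjusted p = 0.000206), or 2.35-fold.

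A second Nr4a2 probe set, 1455034_at, gave a larger decrease. It was at 4.36, 5.001 and 4.78 in AID-/- and at 6.41, 6.81 and 6.56 in AID+/+ leukaemia. These groups were also apart, with the AID-/- arrays on both sides of the median probe set, 4.89. The decrease was 1.88 (SE 0.17, adjusted p = 0.000301), or 3.68-fold.

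The other Nr4a2 probe sets fell by smaller amounts or did not pass. Probe set 1447863_s_at, whose suffix marks probes shared with other sequences, was at 5.22, 5.57 and 5.41 in AID-/- and at 7.22, 6.10 and 6.35 in AID+/+ leukaemia, where replicate 1 stood above the other two. It fell by 1.16 (SE 0.26, adjusted p = 0.0189), a call lost when AID-/- replicate 1 (adjusted p = 0.0522) or replicate 3 (0.0573) was dropped. Probe set 1450749_a_at averaged 5.78 ± 0.24 in AID+/+ and 5.07 ± 0.19 in AID-/- arrays (SD, n = 3) and fell by 0.71 (SE 0.15, adjusted p = 0.0141). The calls on these probe sets were also lost in an ordinary linear model, with adjusted p of 0.161 and 0.114.

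The remaining pair of Nr4a2 probe sets, both named for 1 cDNA accession, differed in sign. Probe set 1433423_at averaged 5.13 ± 0.43 in AID+/+ and 4.44 ± 0.17 in AID-/- arrays (SD, n = 3) without overlap, and its difference of -0.69 just missed the threshold (adjusted p = 0.0536). Without AID+/+ replicate 2, the lowest of its group at 4.67, it passed (adjusted p = 0.00918). Probe set 1433422_at was at 4.24 ± 0.30 in AID-/- and at 4.06 ± 0.10 in AID+/+ arrays. It was the 1 member probe set with a positive difference, 0.18 (95% interval -0.17 to 0.53), and its groups overlapped. With the 6 probe sets averaged per array, Nr4a2 fell by 0.91 (SE 0.10, adjusted p = 0.00104 over genes).

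Nr4a1 encodes NUR77, which is induced in proportion to antigen receptor signal strength and can promote death of lymphocytes. It was read by 1 probe set, 1416505_at, at 6.05, 6.27 and 6.09 in AID-/- and at 6.83, 6.79 and 6.72 in AID+/+ leukaemia. All AID-/- arrays lay below all AID+/+ arrays. The decrease was 0.64 (SE 0.10, adjusted p = 0.00316), or 1.56-fold, and 8.66% of all probe sets differed by at least this much in either direction. The calls on Nr4a1 and on the Nr4a2 probe sets 1450750_a_at and 1455034_at passed in all 41 other fits of these single probe sets, every fit that left out 1 array included.

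Nr4a3, which encodes NOR1 and overlaps with Nr4a1 in function, did not pass at any of its 3 probe sets. At the brightest, 1421080_at, it was at 6.66, 6.93 and 6.77 in AID-/- and at 6.86, 6.71 and 6.90 in AID+/+ leukaemia. The arrays of the groups were intermixed, and the difference was -0.03 (95% interval -0.28 to 0.21), an interval that leaves out a decrease as large as that of Nr4a1. Whether Nr4a3 and its relatives differ in response was not tested. Probe set 1438796_at was lower without overlap, with means of 4.04 ± 0.11 for AID-/- and 4.50 ± 0.27 for AID+/+ (SD, n = 3). Its difference of -0.47 missed the threshold (adjusted p = 0.0646) and passed without AID+/+ replicate 1 (adjusted p = 0.0150). Its 95% interval, -0.79 to -0.14, takes in a decrease as large as that of Nr4a1. The third, 1421079_at, was at 3.51 ± 0.16 and 3.54 ± 0.14, near the lower quartile of all probe sets, 3.51.

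**Figure D2:**
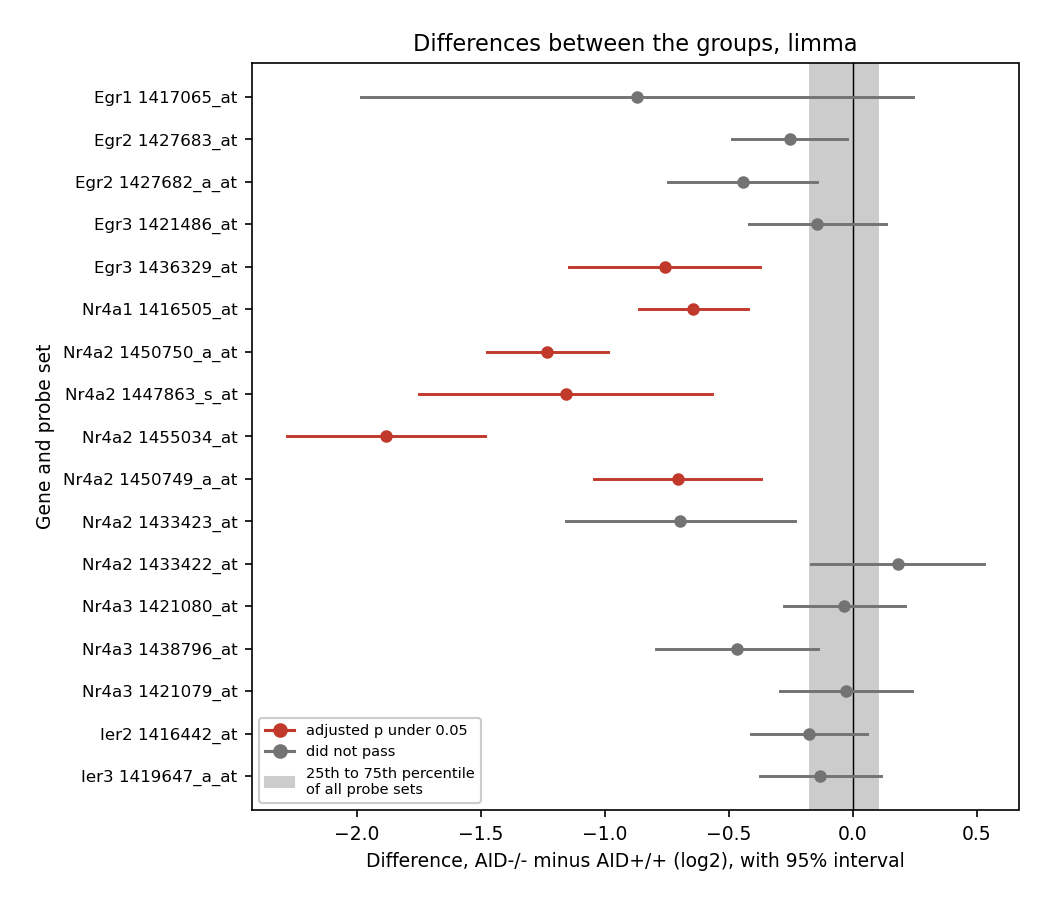
Difference between the groups in log2 units (x axis, AID-/- minus AID+/+) with its 95% interval from limma for each of the 17 probe sets (y axis); red marks an adjusted p under 0.05 and the grey band the 25th to 75th percentile of all probe sets, -0.18 to 0.11. The 6 called probe sets lie to the left of the band, and the widest interval is that of Egr1, from -1.98 to 0.24.

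The stretches before the NR4A genes are shown because the 3 genes share a sequence feature there. The CRE half-site, to which CREB family proteins bind, reads TGACG, or CGTCA on the opposite strand. Both orientations were searched in the 250 bases before each transcript start and stand in capitals below, from 5′ to 3′ on the gene's strand. The sequences are from RefSeq, build GRCm38.p6, at chr15:101266596-101266845 on the plus strand for Nr4a1, chr2:57124004-57124253 on the minus strand for Nr4a2 and chr4:48045055-48045304 on the plus strand for Nr4a3.
Nr4a1: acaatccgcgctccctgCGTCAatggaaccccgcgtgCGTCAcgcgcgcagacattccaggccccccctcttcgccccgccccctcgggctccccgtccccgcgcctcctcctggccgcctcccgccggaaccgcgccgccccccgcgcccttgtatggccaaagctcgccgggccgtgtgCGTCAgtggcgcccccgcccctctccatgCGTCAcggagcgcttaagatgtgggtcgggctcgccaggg
Nr4a2: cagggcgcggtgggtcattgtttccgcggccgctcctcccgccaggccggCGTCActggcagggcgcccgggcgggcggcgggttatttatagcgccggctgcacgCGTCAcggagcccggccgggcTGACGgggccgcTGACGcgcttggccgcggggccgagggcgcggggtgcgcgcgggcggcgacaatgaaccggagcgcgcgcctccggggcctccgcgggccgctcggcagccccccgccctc
Nr4a3: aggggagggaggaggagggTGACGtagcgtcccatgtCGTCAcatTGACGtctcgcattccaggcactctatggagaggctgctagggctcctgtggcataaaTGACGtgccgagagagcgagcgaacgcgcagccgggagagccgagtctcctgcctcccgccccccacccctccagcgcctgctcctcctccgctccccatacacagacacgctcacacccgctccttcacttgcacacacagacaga
Each of the 3 windows held 4 half-sites, the first of them 233 (Nr4a1), 200 (Nr4a2) and 231 (Nr4a3) bases before the start. Among 32851 windows of this length in the table, several of which can belong to 1 gene, 17.8% held at least 1 half-site and 0.137%, or 45 windows, held at least 4. The full palindrome TGACGTCA, which contains the half-site on both strands, was in none of the 3 windows and in 1.55% of all. The EGR motif GCGNGGGCG, searched on both strands, occurred once before Nr4a1 and once before Nr4a2, without touching a half-site, and in 4.70% of all windows. A match describes the letters and does not show that a factor binds there. Egr2 and Ier3 were searched likewise: Ier3 held no half-site, and the 5 Egr2 windows held 0 to 2. The Egr2 windows with 2 overlap and share the same sites, and 3.90% of all windows held at least 2. A further motif, the CArG box (CC, a run of A or T, then GG), was searched in the same windows. It occurred once in each Egr2 window except the first, in no NR4A or Ier3 window and in 1.47% of all windows. No window was examined for Egr1, Egr3 and Ier2. Whether the half-sites bear on the differences between the groups was not tested.

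**Figure D3:**
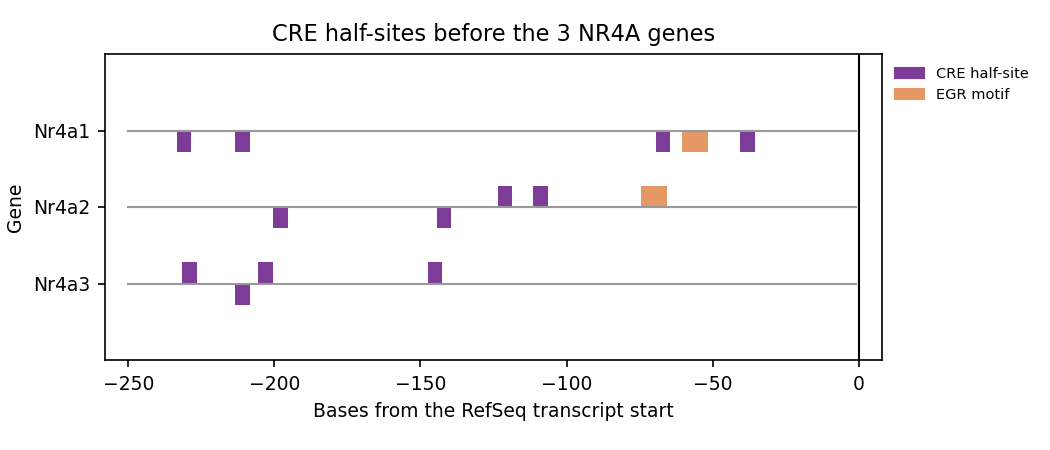
Positions of CRE half-sites (purple) and of the EGR motif (orange) in the 250 bases before the RefSeq transcript start (x axis, in bases) of Nr4a1, Nr4a2 and Nr4a3 (y axis), drawn above the line where the motif reads along the gene's strand and below it where it reads against it. Each gene has 4 half-sites, all 4 against the strand in Nr4a1.

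Egr1, a zinc finger factor and a classical ERK target, varied more among the AID-/- arrays than any other member probe set. It was at 7.39, 6.48 and 8.84 in AID-/- replicates 1, 2 and 3 and at 8.48, 8.36 and 8.48 in the AID+/+ replicates. AID-/- replicate 3 lay above every AID+/+ array and the other two AID-/- arrays lay below them, so the groups overlapped. The SD was 1.19 in AID-/- against 0.07 in AID+/+ leukaemia (n = 3 each), and only 0.266% of all probe sets had an SD in the AID-/- arrays of at least this size. The difference of -0.87 (SE 0.49, 95% interval -1.98 to 0.24) did not pass (adjusted p = 0.303). The result rested on single arrays: without AID-/- replicate 3 the difference was -1.50 and passed (adjusted p = 0.00935), and without AID-/- replicate 2 it was -0.32 (adjusted p = 0.637).

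Egr2, which with Egr3 is induced by calcineurin and NFAT and restrains lymphocyte activation, lay low on the scale. Its probe set 1427683_at was at 3.59, 3.45 and 3.53 in AID-/- and at 3.78, 3.64 and 3.90 in AID+/+ leukaemia. Probe set 1427682_a_at was at 2.60, 2.64 and 2.81 in AID-/- and at 2.93, 3.07 and 3.38 in AID+/+ leukaemia. Neither overlapped between the groups, and both lay near or below the lower quartile of all probe sets, where values hold little order. Their differences of -0.25 (adjusted p = 0.144) and -0.44 (adjusted p = 0.0582) did not pass. The second passed without AID+/+ replicate 1 (adjusted p = 0.0475), and with both probe sets averaged Egr2 was lower by 0.35 (adjusted p = 0.0455 over genes).

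Egr3 gave different results at its 2 probe sets. At the brighter one, 1421486_at, it was at 6.16, 6.30 and 5.88 in AID-/- and at 6.23, 6.21 and 6.32 in AID+/+ leukaemia, with overlap and no call (difference -0.14, 95% interval -0.42 to 0.13). Probe set 1436329_at was at 2.38, 2.99 and 2.70 in AID-/- and at 3.35, 3.32 and 3.68 in AID+/+ leukaemia. This one fell by 0.76 (SE 0.17, adjusted p = 0.0184), but it lay below the lower quartile of all probe sets, 3.51, on every array except AID+/+ replicate 3. The call was lost without AID-/- replicate 3 (adjusted p = 0.0559) or AID+/+ replicate 3 (0.0719) and in an ordinary linear model (0.139). With both averaged, Egr3 was lower by 0.45 (adjusted p = 0.0398 over genes).

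The IER genes did not pass. Ier2, a nuclear protein induced by growth factors, was at 8.36, 8.40 and 8.14 in AID-/- and at 8.51, 8.40 and 8.51 in AID+/+ leukaemia. The AID+/+ arrays lay just above the AID-/- arrays, with replicate 2 of both groups almost level, and the difference was -0.18 (95% interval -0.41 to 0.06, adjusted p = 0.320). Ier3, which encodes IEX-1, a modulator of ERK signalling and cell survival, was at 2.96, 3.21 and 3.24 against 3.18, 3.32 and 3.31. These values overlapped near the bottom of the scale, and the difference was -0.13 (95% interval -0.37 to 0.11, adjusted p = 0.495).

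Genes whose pattern over the 6 arrays was most like that of Egr1, which had the widest range of the 8 genes at their brightest probe sets, were sought among 10787 genes brighter than the median probe set. The 5 with the highest Pearson's r were Ccdc157 (0.990), Tbc1d31 (0.978), Pcnt, a centrosome scaffold (0.973), Oosp3 (0.973) and Wee1, an inhibitor of mitotic entry (0.972). The coefficient ignores size: Ccdc157 ranged from 5.14 to 5.67, against 6.48 to 8.84 for Egr1. No other member was among them, and the 6 points share 2 groups, so these values are descriptions.

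The genes around the members in the pathway were described from 8 lists chosen with earlier results of these data known, each gene at its brightest probe set and tested over 18193 genes. Over all genes, 18.5% were called, 8.42% lower and 10.1% higher, with a median difference of -0.03. Across the lists, 17 of 102 measured genes were lower and 19 were higher, with a median of -0.03. The count of lower genes was 10 without AID+/+ replicate 1, 10 without replicate 2 and 8 without replicate 3.

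The list of ERK feedback genes, which ERK signalling induces, had 4 of 11 lower, 1 higher and 6 not passing, with a median of -0.34. It holds inhibitors of the route and the ETS activators Etv4 and Etv5. Etv4 fell by 0.66 (SE 0.09, adjusted p = 0.00227) at its brighter probe set, from 6.41 ± 0.08 in AID+/+ to 5.75 ± 0.10 in AID-/- leukaemia (SD, n = 3). Spred1, an inhibitor of RAS activation, fell by 0.66 (SE 0.11), and 6 of 8 Spred1 probe sets were called lower. Spry2, a receptor tyrosine kinase antagonist, fell by 0.74 (SE 0.16) but did not pass once AID+/+ replicate 1 or 2 was dropped (adjusted p at most 0.0627). Dusp5, a nuclear ERK phosphatase, was higher by 0.82 (SE 0.19) but needed all AID+/+ arrays to pass (adjusted p at most 0.0826 when 1 was dropped). Of the ERK pathway kinases, 5 of 9 were measured: Map2k1, which encodes MEK1, fell by 0.40 (SE 0.09) and did not pass once AID+/+ replicate 2 or 3 was dropped (adjusted p at most 0.0775). The other 4, among them Araf, Rps6ka3 and Braf with differences of 0.31, -0.26 and -0.15, did not pass.

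Factors that act on immediate-early promoters went both ways, with 4 of 16 lower, 2 higher and 10 not passing, and a median of 0.02. Hdac5, a deacetylase that restrains MEF2 factors, was at 7.12, 6.17 and 6.50 in AID-/- and at 8.94, 8.46 and 8.46 in AID+/+ leukaemia. The groups were well apart, and it fell by 2.02 (SE 0.24, adjusted p = 0.00115), or 4.06-fold. Elk1, an ETS partner of serum response factor, was higher by 0.84 (SE 0.13) and Mrtfb, an actin-regulated cofactor of the same factor, by 0.52 (SE 0.10). Each was called at 1 of its 3 probe sets, and neither passed with its probe sets averaged (adjusted p = 0.112 and 0.184). The brightest Creb1 probe set fell by 0.37 (SE 0.09), a call lost when AID-/- replicate 2, AID+/+ replicate 2 or AID+/+ replicate 3 was dropped. Of 6 Creb1 probe sets, 2 were called lower and 1 higher, and their average differed by 0.06.

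The list of partners and corepressors of the members also holds their relatives Egr4, Ier5 and Ier5l. In it, 1 of 7 was lower and 6 did not pass, with a median of -0.03. Nab1, a corepressor that binds EGR proteins, was at 9.92, 9.43 and 9.69 in AID-/- and at 10.46, 10.36 and 10.22 in AID+/+ leukaemia. It fell by 0.67 (SE 0.13, adjusted p = 0.0114), and all 3 of its probe sets were called lower. Rxrb and Rxra, which encode dimer partners of NR4A receptors, and Ier5 differed by -0.23, -0.08 and -0.03. In the calcineurin and NFAT list, 1 of 7 was higher and 6 did not pass, with a median of 0.00. Rcan1, a feedback inhibitor of calcineurin, was higher by 0.49 (SE 0.10) but did not pass once AID-/- replicate 3 or AID+/+ replicate 2 was dropped (adjusted p at most 0.0578). Nfatc1, Ppp3r1 and Ppp3cb differed by -0.34, -0.19 and -0.10.

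Other immediate-early genes split, with 7 of 37 higher, 6 lower and 24 not passing, and a median of -0.08. Btg2, an antiproliferative p53 target, was higher by 0.76 (SE 0.10), Plk2, a polo-like kinase, by 0.84 (SE 0.14) and Csrnp1, a nuclear factor induced by AXIN1, by 0.91 (SE 0.17). Each was called at 1 of its 2 probe sets. Atf3, a stress-induced factor of the ATF/CREB family, fell by 0.81 (SE 0.13, adjusted p = 0.00463), from 6.77 ± 0.14 to 5.96 ± 0.23 (SD, n = 3).

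Genes that other work reports as EGR targets were mostly higher where called, with 5 of 10 measured genes higher, 1 lower and 4 not passing, and a median of 0.45. Id3, a partner that keeps E proteins off DNA, was 1.52 higher, and Icam1, an adhesion molecule, was higher by 1.97 (SE 0.15, adjusted p = 0.000122), with means of 8.36 ± 0.20 for AID-/- and 6.38 ± 0.24 for AID+/+ (SD, n = 3). Cdkn1a, the p21 cell cycle inhibitor, was higher by 2.75, and Cd44, the hyaluronan receptor, fell by 4.33. All 4 respond to other factors as well. Heat shock genes, which respond to handling of cells, had 3 of 10 members higher and 7 that did not pass, with a median of 0.18. Hsph1 was higher by 0.54 (SE 0.08), Hspe1 by 0.48 (SE 0.09) and Hspa1b by 0.55 (SE 0.14), while Dnaja1 differed by 0.27 without passing. Hspa1b passed without AID-/- replicate 2 but not when any other single array was dropped (adjusted p at most 0.115). The part of handling in the members' values was not tested.

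**Figure D4:**
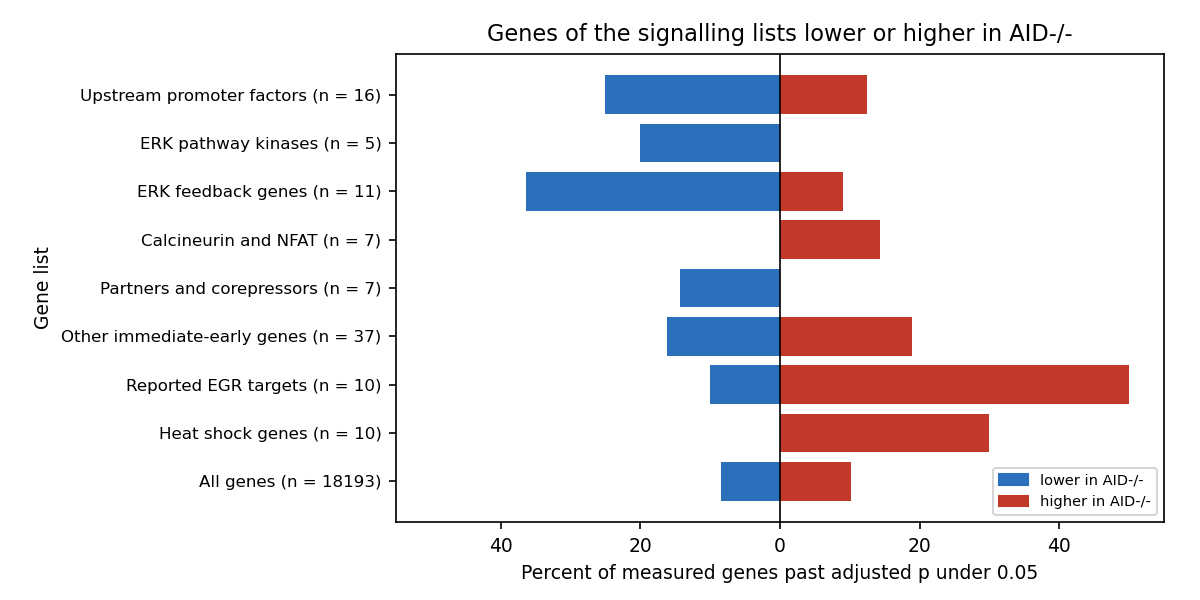
Percent of measured genes (x axis) called lower (blue, to the left) or higher (red, to the right) in AID-/- leukaemia at a limma adjusted p under 0.05, for the 8 lists and for all genes (y axis, n = genes measured). The ERK feedback list has 4 of 11 genes on the lower side, and the list of reported EGR targets has 5 of 10 on the higher side.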

How the data were processed

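Total RNA of 6 leukaemia samples was read on Affymetrix 3' expression arrays. The deposited log2 values, 1 column per array, were made with RMA and Partek per the submitters' processing notes, with versions and order of steps not given there. RMA subtracts background, equalises arrays and joins the probes of a probe set, so dim values are compressed near the floor. Detection calls are not used here, and the number of arrays limits the precision.

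Array controls (64) were left out of 45101 probe sets. Symbols came from the platform annotation (34945 probe sets with 1 symbol, 932 with several, 9160 unnamed), updated by Entrez identifier to RefSeq names, which matched 34741. The test was limma 3.58.1 under R 4.3.3 (lmFit, eBayes, group only, two-sided), with Benjamini-Hochberg adjustment over all 45037 probe sets, or over 18193 genes for gene lists, and a threshold of 0.05. The fit was tested on simulated data. The members and lists were chosen with earlier results of these data known. Named beside the members are up to 4 genes of each list with the smallest p and the 5 genes most like the member of widest range at its brightest probe set. Alternatives covered scaling, a filter on dim probe sets, moderation, array weights, the replicate block, the threshold, probe sets per gene and leaving out each array. A check of the genotype labels on the targeted gene is not reported here.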

Additional observations from a re-analysis of the deposited data

How the results depend on the processing

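Of 221 refits of single member probe sets, 201 kept their direction and their side of the threshold, 7 lost a call, 8 gained one and 5 changed sign. The count of lower members, 6, became 3 in an ordinary linear model and 3 at an adjusted p under 0.01. It was 2 of 8 genes at their brightest probe set, where 8.42% of all genes were lower, and 4 of 8 genes as the mean of their probe sets. Shares over all probe sets or genes in the other alternatives are not given here. Leaving out 1 array gave 5 to 8, and the count of higher members stayed at 0 in every fit. Over the gene lists, leaving out 1 array gave 13 to 20 higher and 8 to 16 lower genes. The changes of sign were near 0: Nr4a3 1421079_at differed by 0.0083 after quantile normalization and by -0.111 to 0.0449 with 1 array left out, Nr4a3 1421080_at by -0.108 to 0.0312 and Ier5 by -0.0901 to 0.0402. As the mean of their probe sets, Creb1, Araf and Rxra differed by 0.0573, -0.0153 and 0.0467. The cause of these changes was not tested. The labels do not say that same-numbered arrays form a pair. Over all probe sets, deviations from the group means had r of -0.0453, -0.0717 and 0.031 between arrays numbered 1, 2 and 3. With 3 arrays per group, such values cannot show that a shared litter, day or batch is absent. With the replicate block, 7 member probe sets were lower, Egr2 1427682_a_at among them (adjusted p = 0.042), and the lists had 17 higher and 14 lower genes, without Hspa1b (0.0682) and Creb1 (0.0666). Signal near the floor limits Egr2, Ier3 and the dimmer probe set of Egr3.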

Other observations

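Fos, the partner of Jun in AP-1 and an immediate-early gene induced through serum response factor like Egr1, was also uneven among the AID-/- arrays. It was named after its values were seen. It was at 4.66, 5.17 and 7.57 in AID-/- replicates 1, 2 and 3 and at 4.46, 4.001 and 4.54 in the AID+/+ replicates. Replicate 3, the AID-/- array with the highest Fos, was also the one with the highest Egr1, at 8.84. Fosb, a relative of Fos chosen likewise, was at 3.34, 3.30 and 5.26 in AID-/- and between 3.18 and 3.43 in AID+/+ leukaemia, so it was also highest in replicate 3. On every other array Fosb lay below the lower quartile of all probe sets, 3.51. The list of other immediate-early genes as a whole was not raised in AID-/- replicate 3. Of its 37 genes, Fos and Fosb included, 20 lay below their AID+/+ mean on that array, and the median deviation was -0.12. Jun, chosen likewise, was at 8.33, 9.97 and 9.20 in AID-/- and at 7.20, 7.30 and 7.38 in AID+/+ leukaemia, with its highest value in replicate 2, where Egr1 was lowest at 6.48. Klf2, a quiescence factor that MEF2 proteins induce, was lowest in the same array, at 5.53 against 7.37 in both other AID-/- arrays and 8.80 to 9.34 in the AID+/+ arrays. In the gene fit with limma, Jun was called higher by 1.87 (adjusted p = 0.00805) and Klf2 lower by 2.30 (adjusted p = 0.0108). Fos was higher by 1.47 without overlap and without passing (adjusted p = 0.177), and Fosb did not pass (adjusted p = 0.420).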
